A study of Mus musculus with 6 samples.

Results

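The CCAAT/enhancer-binding proteins (C/EBPs) are transcription factors with a basic region that binds DNA and a leucine zipper (bZIP) that pairs 2 of them into a dimer. The genes considered were Cebpa, Cebpb, Cebpd, Cebpe and Cebpg, taken as every probe of the value table whose annotated symbol is one of these 5 names. Of 16281 probes in the table, 5 met this rule, 2 for Cebpb and 1 each for Cebpa, Cebpd and Cebpg, or 4 of 10698 named genes. No probe given here carried the symbol Cebpe, so that gene was not analysed, and 4 of the 5 genes are described. Every value of the 5 probes was different from exactly 0 on all 6 arrays.

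The treated cells were RAW 264.7 cells kept for 4 h with 100 ng/ml lipopolysaccharide (LPS) together with 100 pM of its binding protein LBP. The untreated cells were the same line after the same 4 h with neither agent. RAW 264.7 (written RAW 264.4 in part of the labels) is a mouse macrophage line from a virus-induced tumour. LPS comes from the outer membrane of Gram-negative bacteria, and LBP hands it on to its receptor complex on the cell. Total RNA of both was hybridised together on each array, with treated RNA in the red dye Cy5 on 3 arrays and in the green dye Cy3 on 3 others, numbered as sets 1 to 3 in each orientation. Each value is a log2 ratio, treated over untreated, so that 1 is a doubling, and a mean ± SD is over n = 3 sets, each the mean of its arrays of opposite orientation. The direction is the likely one, resting on labels that name Cy5 the test channel. The table holds ratios and no intensities, so levels of different genes, and the levels of macrophage markers, could not be compared. Ratios of RNA from a culture do not tell fewer cells of a kind from less RNA per cell.

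In myeloid cells, C/EBPα drives the step from progenitor to granulocyte and macrophage fate, C/EBPε drives late granulocyte maturation, and C/EBPβ and C/EBPδ take part in the acute-phase and inflammatory response. C/EBPγ has the bZIP part but no strong activation domain, and in dimers it can hold back other members or act with the stress factor ATF4. LPS signalling through TLR4, and cytokines such as interleukin-6, are known inducers of Cebpb and Cebpd in macrophages. C/EBPβ and C/EBPδ can bind next to NF-κB at genes such as Il6.

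After LPS with LBP, Cebpd rose 4.47-fold, Cebpa fell 1.18-fold, Cebpg fell 1.22-fold, and Cebpb did not pass the test. Of the 4 measured genes, 3 passed limma at an adjusted p below 0.05, set against 29.0% of all 11364 features. One was higher, against 14.0% of features, and 2 were lower, against 15.0%. The values of each gene had the same sign on all 6 arrays, as did those of 25.7% of all features. Whether each set had its own culture is not in the labels. The p-values therefore rest only on the scatter of these samples, and that scatter may be technical.

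**Figure D1:**
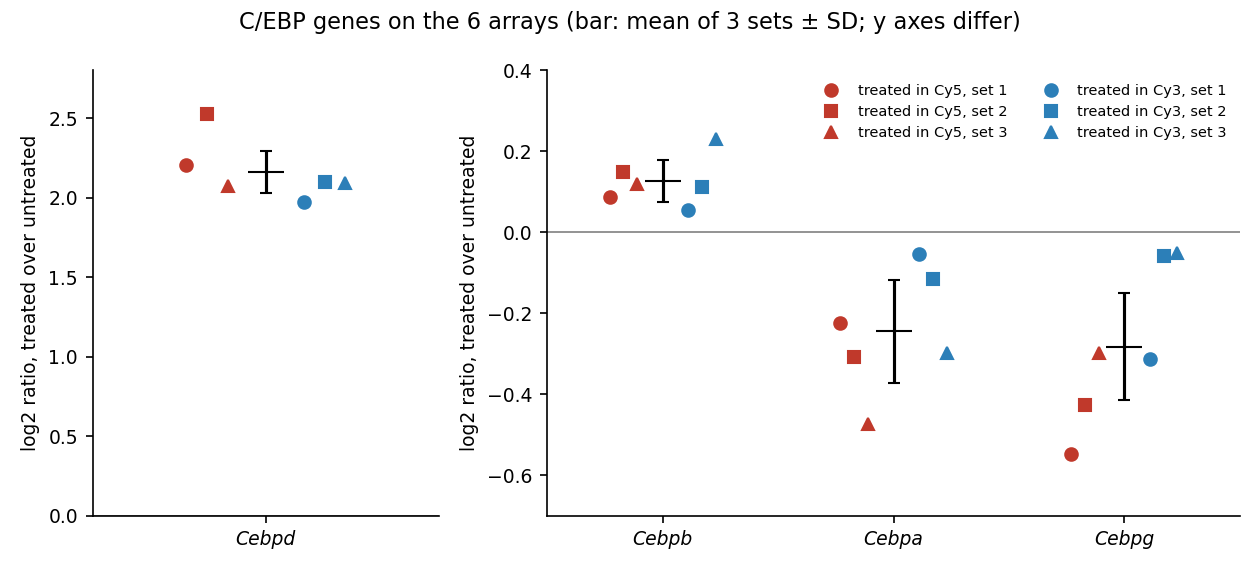
Log2 ratio of treated over untreated RNA (y axes, with different ranges) of the 4 measured C/EBP genes on each array. Points are arrays, red with treated RNA in Cy5 and blue in Cy3, shaped by set; black bars are the mean of 3 sets with its SD. The Cebpd points lie between 1.98 and 2.53, the Cebpb points just above 0, and those of Cebpa and Cebpg below 0.

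Cebpd, the gene of C/EBPδ, had log2 ratios of 2.20, 2.53 and 2.07 on the arrays of sets 1, 2 and 3 with treated RNA in Cy5. With treated RNA in Cy3 they were 1.98, 2.10 and 2.09. The highest single array was that of set 2 in the Cy5 orientation, and the other 5 spanned 1.98 to 2.20. The mean change was 2.16 ± 0.13, with a 95% limma interval of 2.03 to 2.30 and adjusted p = 3.40e-07. Cebpd ranked 62nd by rise among 9574 named genes. It kept its direction and its call under all 16 alternatives, with values of 2.05 to 2.27 and adjusted p from 1.84e-38 to 0.0107. The lowest of these p-values comes from a fit of only 2 sets.

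Cebpb encodes C/EBPβ, the factor first described as a nuclear factor of the interleukin-6 gene (NF-IL6), and had 2 probes. Averaged over both, the arrays with treated RNA in Cy5 gave 0.087, 0.15 and 0.12, and those with it in Cy3 gave 0.056, 0.11 and 0.23. All 6 values were above 0, with 0.23 the highest. The mean was 0.13 ± 0.052, a fold of 1.09, with a 95% limma interval of 0.023 to 0.23. It did not pass after adjustment (limma adjusted p = 0.0719), although its unadjusted limma p was 0.0233. The probes averaged 0.11 ± 0.031 and 0.14 ± 0.11, and neither passed alone (limma adjusted p = 0.109 and 0.0992). Over 18 alternatives the adjusted p ran from 0.0174 to 0.222. The call was made with the set number as a random block (adjusted p = 0.0174) and among features of 1 sign in both orientations (adjusted p = 0.0228). That second setting selects on agreement of sign, so a call there is favoured by the selection. Of its 3153 features, 1348 passed as higher and 1449 as lower.

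Cebpa, the gene of the lineage factor C/EBPα, had -0.22, -0.31 and -0.47 on the arrays of sets 1 to 3 with treated RNA in Cy5. With treated RNA in Cy3 the values were -0.052, -0.12 and -0.30. In both orientations set 1 was nearest to 0 and set 3 farthest from it. The mean was -0.24 ± 0.13, a 1.18-fold fall, with a 95% limma interval of -0.38 to -0.11 and adjusted p = 0.0148. Set 3 decided the call, since without it the change was -0.17 (limma adjusted p = 0.0559). It was also lost on the Cy3 orientation alone (-0.16, adjusted p = 0.187), with the set number as a fixed block (adjusted p = 0.0502) and where exact zeros counted as measured (adjusted p = 0.113). Adjusted p ran from 0.00319 to 0.187 over 16 alternatives, and the value was below 0 in each.

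Cebpg, the gene of the partner protein C/EBPγ, had -0.55, -0.43 and -0.30 with treated RNA in Cy5, and -0.31, -0.060 and -0.052 with it in Cy3, for sets 1 to 3. Here set 1 lay farthest from 0 in both orientations, the reverse of Cebpa. The mean was -0.28 ± 0.13, a 1.22-fold fall, with a 95% limma interval of -0.42 to -0.15 and adjusted p = 0.00865. The call remained without any 1 of the sets, with values of -0.34 to -0.21. On the Cy3 orientation alone it was -0.14 and did not pass (limma adjusted p = 0.248), with the set number as a fixed block the adjusted p was 0.0699, and with exact zeros kept it was 0.0957. Its adjusted p ran from 5.75e-04 to 0.248 over 16 alternatives, all with values below 0.

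The dyes moved with the size of the 2 falls. Cebpa averaged -0.33 ± 0.13 with treated RNA in Cy5 and -0.16 ± 0.13 with it in Cy3 (SD, n = 3 arrays each), and Cebpg -0.42 ± 0.13 and -0.14 ± 0.15 in the same order. In every set, both genes were lower in the Cy5 orientation. A limma test of the dye effect, which is the difference between the orientations divided by 2, gave -0.089 for Cebpa (adjusted p = 0.216) and -0.14 for Cebpg (adjusted p = 0.170). For Cebpd it was 0.11 (adjusted p = 0.319) and for Cebpb -0.0071 (adjusted p = 0.913). Across all features this test called 0, or 0% of them, whereas 2630 had an unadjusted p below 0.05. An average dye effect cancels in the set means.

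**Figure D2:**
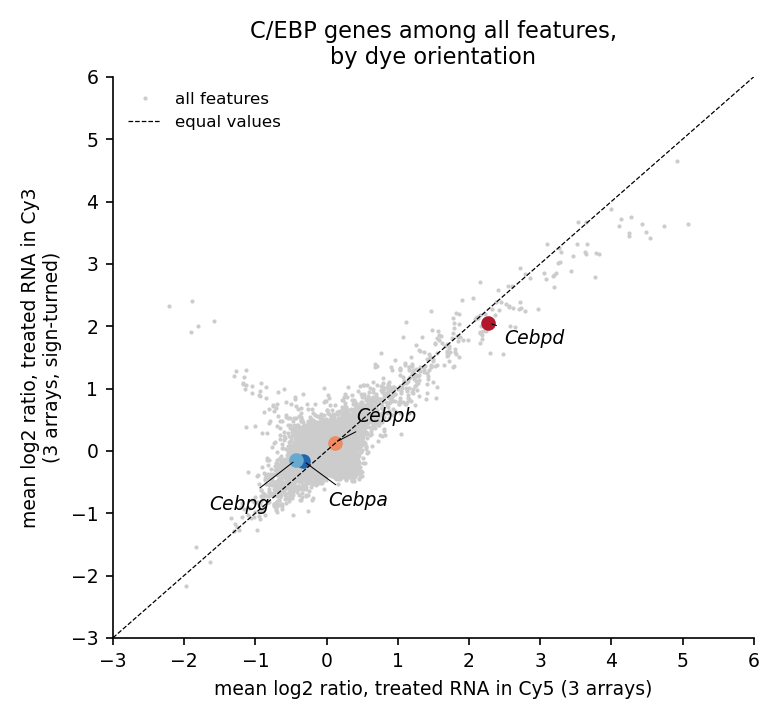
Mean log2 ratio of 3 arrays with treated RNA in Cy5 (x axis) against that of 3 sign-turned arrays with it in Cy3 (y axis), for all 11364 features in grey and the C/EBP genes in colour. Cebpd lies among the high features near the line of equal values (2.27 and 2.05), whereas Cebpa and Cebpg lie in the edge of the central cloud, farther from 0 on the x axis than on the y axis.

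In order of change the genes ran Cebpd, Cebpb, Cebpa, Cebpg. Cebpd exceeded Cebpb by 2.03 ± 0.14 in log2 ratio, with 2.02, 2.18 and 1.90 in the 3 sets. Cebpb exceeded Cebpa by 0.37 ± 0.18, with 0.21, 0.34 and 0.56. Both gaps were larger than the spread between sets and had the same sign on all 6 arrays. Cebpa and Cebpg did not differ beyond their spread, at 0.038 ± 0.25, with 0.29, 0.031 and -0.21 in the 3 sets. Of the 6 pairs of genes, 5 had an exact two-sided sign-flip p of 0.25, the smallest that 3 sets allow, and an adjusted p of 0.3 over the pairs. The pair of Cebpa and Cebpg had exact p = 0.75 and adjusted p = 0.75.

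The promoter windows of Cebpb, Cebpa and Cebpg are shown because Cebpb, with little change, and the falling pair are the members whose RefSeq windows were at hand. Each covers 300 bases of GRCm38.p6 around the annotated start. Capitals mark TGACG (the core of the cAMP response element, CRE, read by CREB and ATF factors), GGGA and CC with 4 bases between them (a loose NF-κB form), TATAAA (the TATA box) and CCAAT, on either strand.
Cebpb, chr2:167688665-167688964, plus strand: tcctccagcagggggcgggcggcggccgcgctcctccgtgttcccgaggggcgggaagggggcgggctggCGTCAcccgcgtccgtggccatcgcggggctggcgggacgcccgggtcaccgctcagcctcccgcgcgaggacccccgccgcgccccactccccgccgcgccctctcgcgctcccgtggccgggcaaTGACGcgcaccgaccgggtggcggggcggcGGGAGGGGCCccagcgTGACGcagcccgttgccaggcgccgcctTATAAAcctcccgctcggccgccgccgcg
Cebpa, chr7:35119043-35119342, plus strand: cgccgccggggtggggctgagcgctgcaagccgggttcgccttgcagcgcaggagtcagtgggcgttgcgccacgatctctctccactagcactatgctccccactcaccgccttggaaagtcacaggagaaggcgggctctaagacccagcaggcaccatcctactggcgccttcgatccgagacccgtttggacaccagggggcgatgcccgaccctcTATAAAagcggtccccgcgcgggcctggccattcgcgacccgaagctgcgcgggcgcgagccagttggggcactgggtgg
Cebpg, chr7:35056517-35056816, minus strand: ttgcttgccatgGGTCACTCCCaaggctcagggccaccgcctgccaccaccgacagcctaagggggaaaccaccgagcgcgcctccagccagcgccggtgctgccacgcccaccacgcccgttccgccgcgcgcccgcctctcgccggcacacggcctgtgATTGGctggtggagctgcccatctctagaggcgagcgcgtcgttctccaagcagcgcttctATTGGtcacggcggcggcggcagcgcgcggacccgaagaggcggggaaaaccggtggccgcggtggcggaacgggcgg

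The windows differ in what they hold. That of Cebpb is 80.7% G and C and has 3 matches to TGACG, at positions -180, -53 and -7 counted from the first base of the gene as 0. The loose NF-κB form stands at position -23 and TATAAA at position 21. The Cebpa window has 67.3% G and C and 1 of the marked motifs, a TATAAA at position -30. The Cebpg window, at 71.7%, has the loose NF-κB form at position -238, CCAAT at -89 and -28, all on the opposite strand, and no TATAAA. Of all 32851 mouse promoter windows in the same RefSeq table, 20.8% hold TGACG, 20.7% the NF-κB form, 13.6% TATAAA and 37.4% CCAAT. The letters TTGCNNAA, a C/EBP form found in 10.8% of windows, and TTCNNNGAA, a STAT form found in 8.30%, are in none of the 3 windows. Matching letters describe the sequence and are not shown to be bound. Cebpd is named only.

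**Figure D3:**
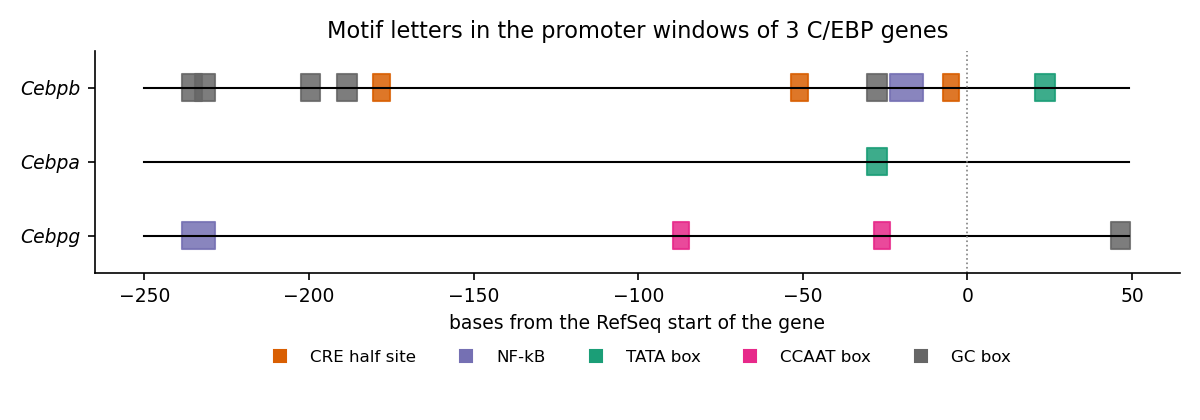
Positions of motif letters (coloured boxes, both strands) in the promoter windows of Cebpb, Cebpa and Cebpg, in bases from the RefSeq start of each gene (x axis). Cebpb holds 3 TGACG matches, 5 GC boxes (GGGCGG), 1 loose NF-κB form and 1 TATA box. Cebpa holds only a TATA box, and Cebpg 2 CCAAT boxes, 1 loose NF-κB form and 1 GC box.

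The 3 named genes nearest to each member over the 6 array values were found by root mean square difference of log2 ratios. Among the 3 nearest to Cebpd were Trex1, a DNA exonuclease gene (difference 0.11, change 2.09 ± 0.070), and Tnf, the cytokine gene (difference 0.13, change 2.08 ± 0.18). Nearest to Cebpb were Ilf2 (0.14 ± 0.073), Nme1 (0.12 ± 0.066) and the mitochondrial import gene Timm23 (0.14 ± 0.015). Of these only Timm23 passed (limma adjusted p = 0.0384), and it did not without any 1 of the sets (0.13 to 0.15). Cebpa lay nearest to Adnp (-0.23 ± 0.14), the kinetochore gene Dsn1 (-0.24 ± 0.072) and the splicing kinase gene Srpk2 (-0.25 ± 0.076). All 3 fell, but Adnp did not pass without set 3 (-0.15, limma adjusted p = 0.0840). Nearest to Cebpg were Twsg1 (-0.31 ± 0.13), the centromere protein gene Cenpp (-0.27 ± 0.064) and Xntrpc (-0.29 ± 0.098), which fell. On the Cy3 orientation alone none of the genes nearest to Cebpa and Cebpg passed, with values of -0.20 to -0.13. These genes were picked for values like those of the members, so their direction and smaller Cy3 values follow from that choice.

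Around the family, 80 further genes in 6 lists were followed, with 67 measured on all 6 arrays. Of these 30 rose, or 44.8%, and 11 fell, or 16.4%, against 14.0% and 15.0% of all features, and their median was 0.11, against 0.00079 over all features. The share that fell was near that of all features. The lists were drawn up from known biology with earlier results of these data known, so their counts are descriptions. Values of the lists are shown in the plot of listed genes.

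**Figure D4:**
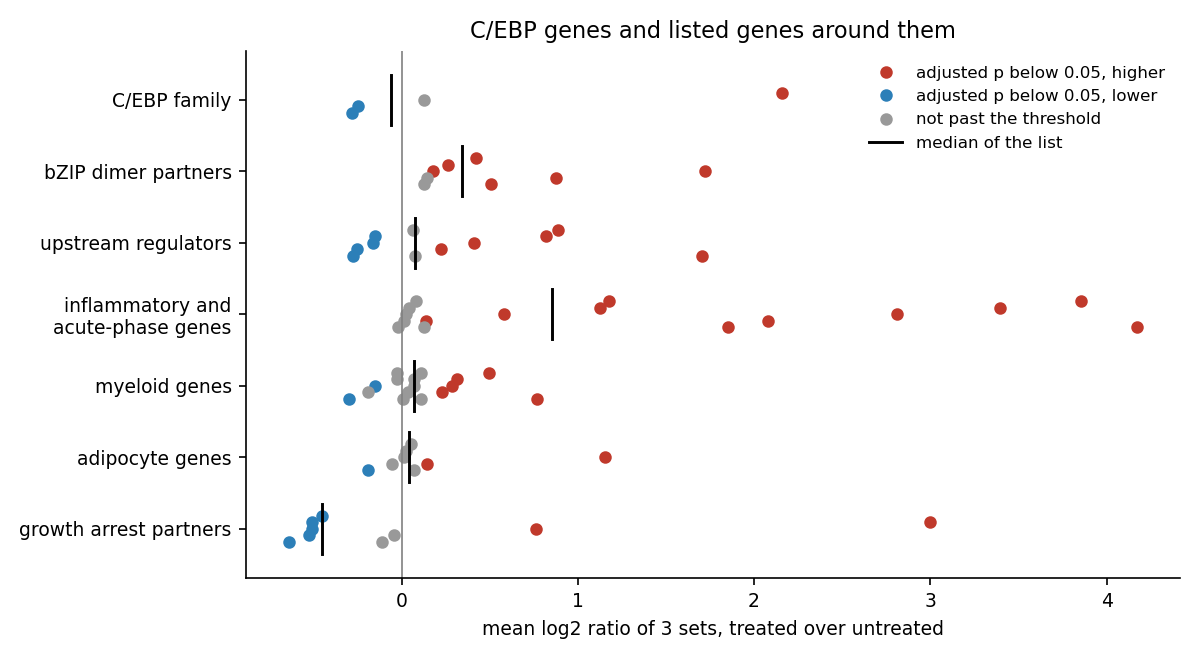
Mean log2 ratio of 3 sets (x axis) for the measured genes of the C/EBP family and of 6 lists (rows). Points are genes, red or blue where they passed as higher or lower and grey otherwise, and black bars are list medians. The inflammatory and acute-phase list reaches from -0.018 to 4.17, whereas 5 of 9 growth arrest partners passed as lower.

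C/EBPs form dimers with other bZIP proteins, and 6 of 8 such partner genes rose while 0 fell, with a median of 0.34. Atf3, a stress-induced repressor gene, rose by 1.72 ± 0.063, and Batf, which pairs with Jun proteins, by 0.88 ± 0.19. Fos was at 0.51 ± 0.017, Atf5 at 0.42 ± 0.069 and Atf4, a partner of C/EBPγ, at 0.26 ± 0.029, all past the threshold (limma adjusted p from 3.36e-07 to 0.00293 for these 5). Ddit3, a C/EBP relative also called CHOP that blocks DNA binding of its partners, was at 0.18 ± 0.10 (adjusted p = 0.0390). Its call was lost without set 2 (0.16), without set 3 (0.13) and without pairing by set (limma adjusted p = 0.137). Jun was at 0.14 ± 0.17 and Atf2 at 0.13 ± 0.14, neither past the threshold, and Jun passed without set 2 (0.24, limma adjusted p = 0.00750). The values of Atf2 split by dye, at -0.68 with treated RNA in Cy5 and 0.94 with it in Cy3. Most of this came from 1 probe, at -2.48, -0.064 and -1.20 in Cy5 and 2.45, 1.02 and 1.52 in Cy3 for sets 1 to 3. The other probe split the same way by less, at -0.12 to -0.11 in Cy5 and 0.16 to 0.28 in Cy3. Atf4 and Ddit3 were named after their values were seen.

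Among known upstream regulators of C/EBP genes and proteins, 5 of 11 measured rose and 4 fell, and 7 were not analysed here. Eif2ak2, the interferon-induced kinase PKR that acts on translation, rose by 1.70 ± 0.19. Stat3, which carries the interleukin-6 signal to the Cebpd gene, rose by 0.89 ± 0.075, with both probes alike at 0.88 and 0.89. Ets2 rose by 0.82 ± 0.18 and Cop1, a ubiquitin ligase gene that acts on C/EBP proteins, by 0.41 ± 0.023, and adjusted p of these 4 ran from 2.90e-06 to 3.03e-04. The ubiquitin ligase gene Siah2 was at 0.23 ± 0.17 (limma adjusted p = 0.0411), with probes at 0.49 and -0.038, and did not pass without set 1 (0.13) or without pairing by set (limma adjusted p = 0.238). Without any 1 of the sets, 2 of the 4 falls were left. Sp1 fell by 0.28 ± 0.011 and Il6st, the signalling chain of the interleukin-6 receptor, by 0.25 ± 0.11 (limma adjusted p = 0.00197 and 0.0103). Il6st averaged -0.50 with treated RNA in Cy5 and -8.54e-04 with it in Cy3. This split lay mostly in set 2, with the probes at -0.90 and -1.24 in Cy5 and at 0.099 and 0.54 in Cy3. In sets 1 and 3 both probes were below 0 in both orientations. The call of Il6st was lost without pairing by set (limma adjusted p = 0.344). Creb1 was at -0.16 ± 0.012 (adjusted p = 0.0240), with probes at -0.35 and 0.035, and did not pass without any 1 of the sets (-0.16 to -0.15). The kinase gene Gsk3b (0.066 ± 0.087) and the translation regulator gene Celf1 (0.077 ± 0.058) did not pass. The remaining fall, Il6ra, was at -0.15 ± 0.047 (limma adjusted p = 0.0394). It averaged probes at 0.30, -0.36 and -0.38, each of which passed alone. Siah2, Sp1, Il6st, Creb1 and Il6ra were named after their values were seen.

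Inflammatory and acute-phase genes known to carry C/EBP sites had 10 rises and 0 falls among 16 measured, with a median of 0.85. The rises numbered 9 without any 1 of the sets and on either orientation alone, and 8 where exact zeros counted as measured. Il1b rose by 4.17 ± 0.055, the acute-phase gene Saa3 by 3.85 ± 0.12, the granulocyte growth factor gene Csf3 by 3.40 ± 0.35 and Il6 by 2.81 ± 0.46. Their limma adjusted p lay between 1.59e-08 and 1.02e-05. Where exact zeros counted as measured, Csf3 was at 1.60 (limma adjusted p = 0.0298). That setting also averages in probes of a gene that have a zero on some array. The lower Csf3 value therefore does not come from the reported probe alone. Saa2 (0.13 ± 0.048, probes at 0.28 and -0.028) and Orm1 (0.081 ± 0.080), which belong to the acute phase of the liver, did not pass.

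C/EBP letters in these promoters are shown to set the sequence beside the change. Of 13 listed genes with a RefSeq window, 9 hold TTGCNNAA on either strand, a share that the choice of the list favours. Capitals mark the match in 30 bases of GRCm38.p6, read along the gene.
Saa3, chr7:46715757-46715786, minus strand: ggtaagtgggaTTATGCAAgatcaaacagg
Il6, chr5:30012975-30013004, plus strand: acgacgtcacaTTGTGCAAtcttaataagg
Ptgs2, chr1:150099951-150099980, plus strand: cgctgcggttcTTGCGCAActcactgaagc
Saa1, chr7:46743144-46743173, minus strand: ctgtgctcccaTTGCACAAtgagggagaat
Saa2, chr7:46751639-46751668, plus strand: ctgtgctcccaTTGCACAAtgagggaaaat
Ptx3, chr3:66219819-66219848, plus strand: gtggtttaacaTTGTGCAAcctcttcagct
Orm2, chr4:63362318-63362347, plus strand: gagagaacattTTGCGCAAgacatttccca

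Values of genes with the same 8 letters are set side by side here, with no test of their difference. TTGCGCAA stands in the window of Ptgs2, the inducible prostaglandin synthase gene, at 1.85 ± 0.35, and in that of Orm2 at -0.018 ± 0.060. TTGTGCAA stands in those of Il6 (2.81 ± 0.46) and of Ptx3, a pentraxin gene, at 0.026 ± 0.048. Saa1 and Saa2 share TTGCACAA and most flanking bases, with 1.12 ± 0.40 for Saa1 and 0.13 ± 0.048 for Saa2. TTGCACAA is TTGTGCAA read on the opposite strand, so Il6, Ptx3, Saa1 and Saa2 hold the same 8 letters. Ptgs2 and Saa1 passed (limma adjusted p = 2.35e-05 and 5.69e-04), whereas Orm2 (0.811), Ptx3 (0.720) and Saa2 (0.0649) did not. Ptgs2 did not pass on the Cy5 orientation alone (1.47, limma adjusted p = 0.0515), nor Saa1 with exact zeros kept (limma adjusted p = 0.0610). The Saa2 probe at 0.28 passed alone (limma adjusted p = 0.00396), and Saa2 passed with a random set block (limma adjusted p = 0.0202). Transcripts of Saa1 and Saa2 are near-identical, so a probe of either can bind both. Ptgs2, Saa1, Ptx3 and Orm2 were named for these letters after their values were seen.

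Myeloid genes that C/EBPα and C/EBPε are known to drive had 5 rises and 2 falls among 16 measured, with a median of 0.071. The lysozyme gene Lyz2 rose by 0.77 ± 0.098, the macrophage and B cell factor gene Spi1 (PU.1), a partner of C/EBPα, by 0.50 ± 0.15, and the growth factor receptor gene Csf2ra by 0.31 ± 0.072. Csf1r, the receptor of the macrophage growth factor, fell by 0.30 ± 0.067, and adjusted p of these 4 ran from 3.35e-05 to 0.00241. Csf3r, the granulocyte growth factor receptor, was at -0.19 ± 0.14 (adjusted p = 0.0519). It passed without set 2 (-0.27, limma adjusted p = 0.00188), on the Cy5 orientation alone (-0.33, limma adjusted p = 0.0324) and with a random set block (limma adjusted p = 0.0493). The repressor gene Gfi1 was at 0.11 ± 0.051. The fall besides Csf1r was that of Il6ra, whose probes of opposite sign are given above. Without set 1 or set 3, 1 of the 2 falls in this list was left. Granulocyte markers moved little, from -0.043 to 0.29 over 8 genes.

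Adipocyte genes that C/EBPα is known to switch on had 2 rises and 1 fall among 8 measured, with a median of 0.042. Fabp4, a fatty acid carrier gene that macrophages also express, averaged 1.16 ± 0.12 over probes at 2.20 and 0.11, of which the second did not pass (limma adjusted p = 0.247). Pparg, the nuclear receptor gene that works with C/EBPα, was at -0.19 ± 0.13 (adjusted p = 0.0440) and the lipase gene Lpl at 0.14 ± 0.053 (adjusted p = 0.0485). Neither call was stable, since Pparg was lost without set 1 (-0.15) or set 2 (-0.15), and Lpl without any 1 of the sets (0.11 to 0.16), and both without pairing by set (limma adjusted p = 0.122 for Pparg and 0.128 for Lpl). Lep (0.072 ± 0.073) and Retn (0.056 ± 0.029), both fat cell hormone genes, did not pass.

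Proteins through which C/EBPα is known to stop cell division formed the only one of the 6 lists with more falls than rises, 5 and 2 of 9 measured, with a median of -0.45. Rbl2, a retinoblastoma relative, fell by 0.64 ± 0.066, E2f1 by 0.53 ± 0.10, the chromatin remodeller gene Smarca2 by 0.51 ± 0.099, Rbl1 by 0.51 ± 0.071 and the kinase gene Cdk2 by 0.45 ± 0.091. Their limma adjusted p ran from 5.04e-05 to 4.39e-04. Myc, which C/EBPα is known to repress, rose by 3.00 ± 0.36, and the cell cycle inhibitor gene Cdkn1a by 0.76 ± 0.12 (adjusted p = 2.25e-06 and 5.57e-05). Cdk4 (-0.042 ± 0.098) and Rb1 (-0.11 ± 0.058) did not pass. Where exact zeros counted as measured, Cdk2 was at -0.034 (limma adjusted p = 0.952), and on the Cy5 orientation alone Rbl1 was at -0.29 (limma adjusted p = 0.0546), which left 4 falls in each case. The Cdk2 value with zeros kept also averages in probe values left out of the reported change for a zero on some array. Smarca2, Rbl1 and Cdk2 were named after their values were seen.

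Markers of other cell types were checked alongside. Of 25 measured markers of granulocytes, adipocytes, hepatocytes, T cells, B cells and fibroblasts, 3 passed as higher and 0 as lower. Over all features, 14.0% passed as higher and 15.0% as lower. The marker values ranged from -0.043 to 0.29. The 3 that passed were Elane (0.29 ± 0.13), Cd4 (0.23 ± 0.12) and Afp (0.20 ± 0.038), with limma adjusted p of 0.00744, 0.0187 and 0.00986. Cd4 did not pass without set 1 (0.18), without set 3 (0.21) or without pairing by set (limma adjusted p = 0.107). The probes of Elane stood at 0.53 and 0.040, and the second did not pass (limma adjusted p = 0.612). Of 7 measured macrophage markers, 3 rose and 1 fell, led by Adgre1, the gene of the surface protein F4/80, at 1.10 ± 0.13 (adjusted p = 9.75e-06). The part of these changes in the values of the C/EBP genes was not tested.

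**Figure D5:**
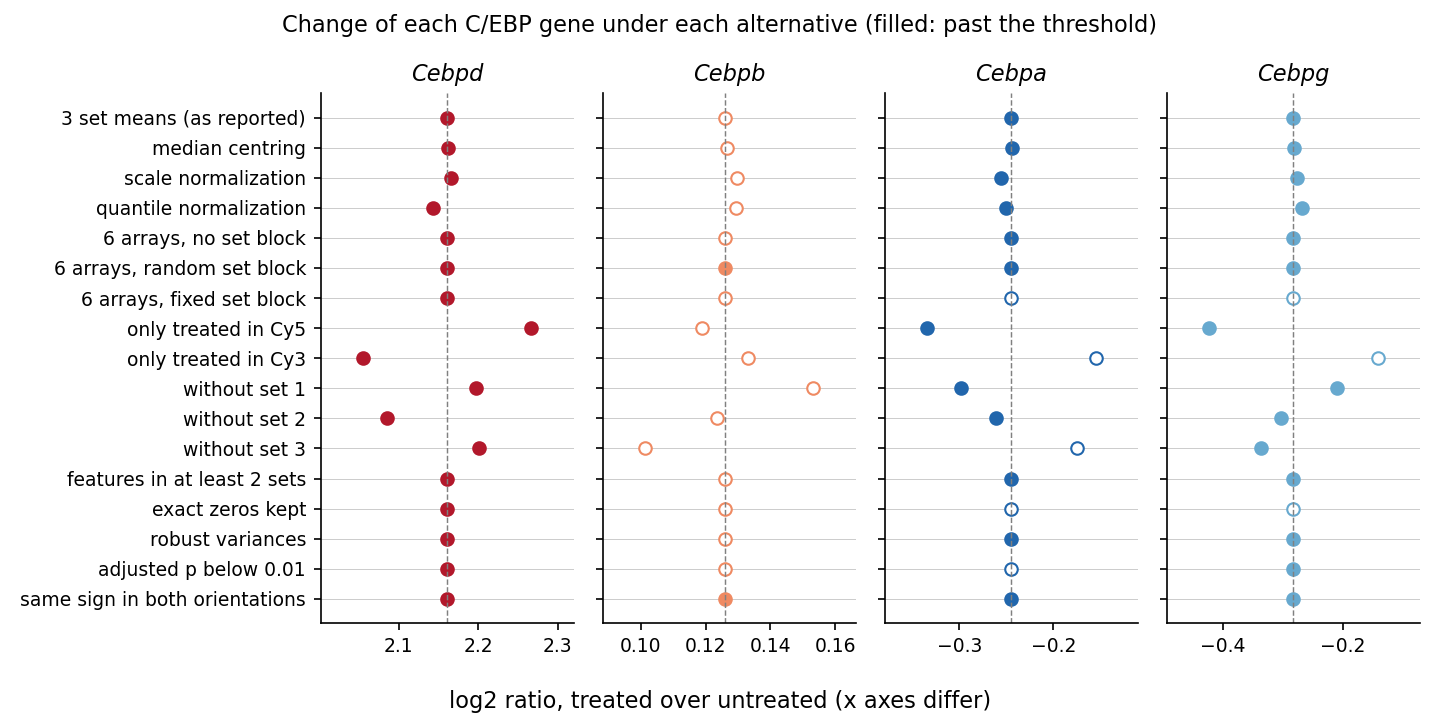
Log2 ratio of treated over untreated RNA (x axes, with different ranges) of each C/EBP gene under each way of processing (rows), filled where the gene passed the threshold and open where it did not. Dashed lines mark the reported value. Cebpd is filled in every row, Cebpb in 2, and Cebpa and Cebpg are open with only the Cy3 orientation, with a fixed set block and with exact zeros kept, and Cebpa also without set 3 and at the stricter threshold.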

How the data were processed

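Total RNA of treated and untreated cells was compared on 6 two-colour arrays. The authors deposited 1 log2 ratio for each probe on each array, with a median of 0 per array. Their scanner, normalization and genome build are not given in the sources used here. Without intensities the number of arrays limits the precision. Deposited arrays of opposite dye orientation correlated from -0.775 to -0.397 across features, and those of the same orientation from 0.739 to 0.838, and the sign was turned on those with treated RNA in Cy3. Exact zeros (1254 to 2086 per array) were taken as not measured. Symbols came from the platform annotation, where 13738 probes had 1 symbol, 52 several and 2491 none, and 13694 matched GRCm38.p6 by Entrez ID. Probes of 1 gene on all 6 arrays were averaged, which gave 11364 features from 13415 probes. Each set was read as a dye swap, though labels and values do not show that its 2 arrays carried the same RNA. Means of the 2 arrays of a set were tested against 0 with limma 3.58.1 in R 4.3.3. The settings were lmFit, eBayes, two-sided p, Benjamini-Hochberg over all features and a threshold of 0.05. This fit was tested on simulated data. Named genes were the members, the 3 nearest genes of each, and up to 4 called and 2 uncalled genes of largest change per list, besides those marked as chosen later, and 1 of the nearest genes is not reported here. Members and lists were chosen with earlier results of these data known.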

Additional observations from a re-analysis of the deposited data

How the results depend on the processing

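Values in the report rest on 3 sets, and ratios without intensities do not show which spots were dim. Centring, scale and quantile normalization moved no C/EBP call. Features called numbered 1586 higher and 1708 lower. With the set number as a fixed replicate block these counts were 904 and 848, on the Cy5 orientation alone 931 and 894, and on the Cy3 orientation alone 1079 lower. At adjusted p below 0.01, 1063 were lower. C/EBP genes called higher numbered 2 instead of 1 with a random replicate block and among features of 1 sign in both orientations (Cebpb 0.13 in both). Features of 1 sign were selected on their values, and most of them passed. C/EBP genes called lower numbered 0 instead of 2 with the fixed replicate block, on the Cy3 orientation alone and with exact zeros kept, and 1 at adjusted p below 0.01. The values behind this were -0.24 for Cebpa and -0.28 for Cebpg under the fixed replicate block and with zeros kept, -0.16 and -0.14 in Cy3 alone, and -0.24 for Cebpa at the stricter threshold. Without 1 set each, 1 to 2 were called lower, Cebpa ran from -0.30 to -0.17 and Cebpb from 0.10 to 0.15. Listed genes called lower numbered 11, and 6 with the fixed replicate block, 6 in Cy3 alone, 7 with zeros kept and 7 at the stricter threshold. Deviations from the orientation means correlated at -0.484, -0.512 and -0.0203 within sets 1 to 3 on sign-turned values. Before the sign was turned, the arrays of sets 1 and 2 therefore tended to deviate in the same direction. By the highest sign-turned correlation 0 of 3 arrays matched their own set, a check that cannot detect such a negative pairing. The random replicate block used a within-set correlation of -0.513. What the 2 arrays of a set share was not tested. The reported fit still averages by set number. With no replicate block, on 6 separate arrays, 1203 features were higher and 1264 lower, listed genes numbered 26 higher and 8 lower, and the calls of the C/EBP genes were the same. The pair of Cebpa and Cebpg turned to -0.014 in Cy3 alone and -0.090 without set 1. Apart from Il6ra, of which the probe at 0.30 passed alone, genes that turned sign were all uncalled under the alternative. In Cy3 alone these were Orm1 (-0.0071), Cdk4 (0.040), Gfi1 (-0.052), Ptx3 (-0.12), Pepd (-0.060), Gpatch1 (0.16) and Pard6b (0.013), and in Cy5 alone Jun (-0.18), Atf2 (-0.68), Orm2 (0.077) and Spag6l (0.054). Gpatch1 was at 2.38e-04 with scale and 0.0050 with quantile normalization, and from -0.084 to 0.040 without 1 set each. Orm2 was at 0.0031 without set 1 and Lep at -0.029 with zeros kept, a setting that also averages in probes with a zero on some array. Single probes of Siah2, Saa2 and Creb1 were at -0.038, -0.028 and 0.035. The dye effect of Cebpb ran from -0.020 to 0.017 without 1 set each. Over 72 named genes, without Il6ra, and all alternatives, 1021 values kept direction and call. Another 121, in 28 genes, kept direction but lost the call, while 15, in 8 genes, gained one. The cause was not tested.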

Other observations

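The nearest measured genes on either side of the C/EBP genes are given with their values. Several lay far off, with other genes between. Spag6l was 863 kb from Cebpd, Adnp 491 kb and Pard6b 391 kb from Cebpb, and Cep89 275 kb from Cebpa. Cebpg and Cebpa are neighbours on chromosome 7 with 1 protein-coding gene between them in GRCm38.p6 and are read away from each other. Pepd, a peptidase gene directly next to Cebpg on its other side, was at 0.042 ± 0.074 (limma adjusted p = 0.571). Beyond Cebpa, Gpatch1 was at -0.0031 ± 0.14 and Cep89 at -0.29 ± 0.047 (limma adjusted p = 0.976 and 0.00219), and Cep89 did not pass without pairing by set (limma adjusted p = 0.0611). On chromosome 16, Mzt2, next to Cebpd, was at -0.17 ± 0.051 and the DNA repair kinase gene Prkdc, beyond it, at -0.31 ± 0.019, both lower (limma adjusted p = 0.0269 and 0.00115) where Cebpd was at 2.16 ± 0.13. The call of Mzt2 was lost without set 1 (-0.16) or set 2 (-0.14). On the other side, Spag6l was at -0.025 ± 0.033 (limma adjusted p = 0.721). On chromosome 2, Tmem189, the neighbour of Cebpb, was at 0.16 ± 0.065 (limma adjusted p = 0.0321), lost without set 1 (0.13), without set 2 (0.16) or without pairing by set (limma adjusted p = 0.0709). On the other side, Pard6b was at -0.13 ± 0.052 and Adnp at -0.23 ± 0.14 (limma adjusted p = 0.0685 and 0.0257), and Adnp did not pass without set 3 (-0.15). These neighbours were chosen after the data were seen.

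Across all measured genes with a RefSeq promoter window, the shares called were set out by the C/EBP letters TTGCNNAA on either strand. Of 855 genes with them, 14.5% passed as higher and 14.6% as lower, and of 6760 genes without them, 13.7% and 16.0%. Median changes were 0.0060 with the letters and -9.37e-04 without. No test was made of these shares.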
